A study of Bos taurus with 18 samples.

Results

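The levels of 6 genes widely used as references for normalising expression were followed across leukocyte libraries of cattle: ACTB (ENSBTAG00000026199), GAPDH (ENSBTAG00000014731), EEF1A1 (ENSBTAG00000014534), PPIA (ENSBTAG00000012003), B2M (ENSBTAG00000012330) and YWHAZ (ENSBTAG00000000236). They were chosen by name for this use and not by their measured values, although earlier results of these data were known at the time. All 6 were present among the 30162 features of the deposited table. The table lists Ensembl identifiers without symbols. The pairing of symbol and identifier came with the choice of the genes and was not checked against an annotation here. The study sequenced leukocyte mRNA from 18 female cattle to ask how expression under heat stress is inherited in a cross of breeds. There were 6 F1 animals of Red Angus x Droughtmaster, 6 Droughtmaster animals (a tropical beef breed with zebu and taurine ancestry) and 6 Red Angus animals (a taurine beef breed). All 18 carried the heat stress label, so the comparisons are between breeds under that condition. Leukocytes were taken as the white layer of centrifuged blood and were not sorted, and the labelled cell type was not checked against markers because the table carries no symbols. The labels give no age, batch, collection date or parentage, and the animals are numbered here within each breed only to name them.

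A reference gene is used to correct for how much RNA entered a measurement, on the premise that its level per cell is steady across the samples compared. The 6 genes stand for different cell functions. ACTB encodes cytoplasmic beta-actin, a building block of the cytoskeleton, and GAPDH encodes a glycolytic dehydrogenase. EEF1A1 encodes the elongation factor that carries aminoacyl-tRNA to the ribosome, and PPIA encodes cyclophilin A, a prolyl isomerase that helps proteins fold. B2M encodes beta-2 microglobulin, the light chain of MHC class I molecules on the cell surface, and YWHAZ encodes 14-3-3 zeta, an adaptor that binds phosphorylated signalling proteins. Blood leukocytes are a mixture of granulocytes, lymphocytes and monocytes, and these cell types carry different amounts of such transcripts. In a bulk library, fewer cells of a type and less RNA per cell cannot be told apart. In mammals ACTB, GAPDH, EEF1A1 and PPIA have close paralogs or processed pseudogenes, and the sources used here do not give how reads shared with such copies were counted, which leaves these counts uncertain.

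Total counts per library ranged from 11639027 to 24117615, and the 6 genes together took between 0.756% and 2.25% of them. The lowest share belonged to Droughtmaster replicate 3, where a single other feature took 44.6% of all counts. Levels are given as CPM (counts scaled to a common library size) with TMM scaling, which sets library sizes from the bulk of the features and so is little moved by such a feature. The TMM factor of that library was 0.424. Its ACTB level was 5634 CPM with TMM and 2388 CPM by its plain total. Counts of the 6 genes ranged from 322 to 221009 per library. The counting error was at most 0.080 on the log2 scale (for the lowest YWHAZ count) and was small beside the spread between animals.

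None of the 6 genes differed between the breeds beyond the spread between animals, while each of them varied among animals of the same breed, from a 1.65-fold range for ACTB in the F1 to a 7.91-fold range for B2M in Red Angus. ACTB had the smallest range over the 18 libraries (3.52-fold), followed by EEF1A1 (4.57-fold), PPIA (5.28-fold) and GAPDH (5.71-fold). YWHAZ (7.31-fold) and B2M (7.91-fold) had the widest ranges. The scale here is CPM, which is not corrected for transcript length, so the levels of different genes are not compared with each other.

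ACTB ran from 4699 to 7733 CPM in the F1 (median 6004), from 2856 to 6910 CPM in Droughtmaster (median 5596) and from 3827 to 10049 CPM in Red Angus (median 7030). The 3 breeds overlapped, and a single Droughtmaster animal, replicate 6, lay below every other library. GAPDH ran from 962 to 2718 CPM in the F1 (median 1198), from 715 to 2401 CPM in Droughtmaster (median 1633) and from 643 to 3673 CPM in Red Angus (median 2023). Red Angus thus held both the highest GAPDH library, replicate 4, and the lowest, replicate 5.

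EEF1A1 ran from 4552 to 13477 CPM in the F1 (median 8257), from 3079 to 8332 CPM in Droughtmaster (median 5816) and from 2946 to 8185 CPM in Red Angus (median 6136). F1 replicates 4, 5 and 6 lay above all 12 parental libraries, and the other F1 libraries lay among them. PPIA ran from 307 to 1123 CPM in the F1 (median 482), from 213 to 768 CPM in Droughtmaster (median 512) and from 322 to 950 CPM in Red Angus (median 554). F1 replicate 5 was the highest library for PPIA and also for EEF1A1.

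B2M ran from 418 to 2365 CPM in the F1 (median 1217), from 754 to 1871 CPM in Droughtmaster (median 1395) and from 343 to 2716 CPM in Red Angus (median 1256). The F1 and Red Angus spanned wider ranges than Droughtmaster, and all 3 breeds overlapped. Red Angus held both the highest B2M library, replicate 1, and the lowest, replicate 2. YWHAZ ran from 26.6 to 120.9 CPM in the F1 (median 67.6), from 30.2 to 114.7 CPM in Droughtmaster (median 70.4) and from 23.1 to 168.7 CPM in Red Angus (median 41.2). The Red Angus animals lay at both ends again, with replicate 5 highest and replicate 4 lowest, the reverse of their GAPDH levels.

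**Figure D1:**
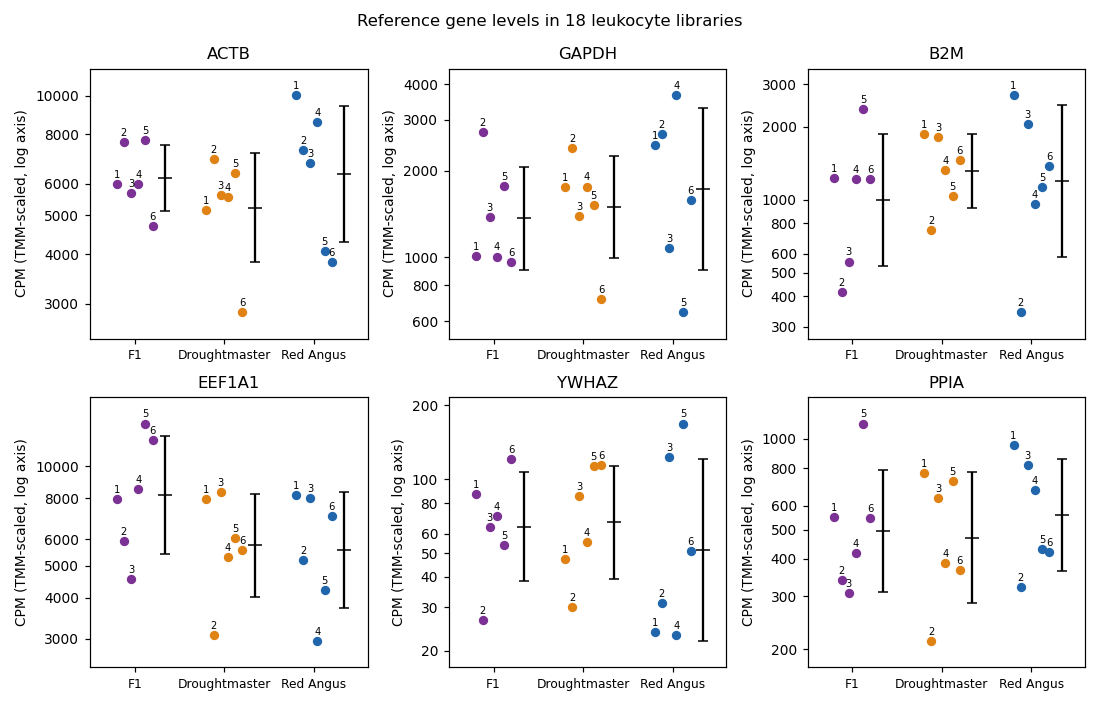
Level of each reference gene in each of the 18 libraries, in TMM-scaled CPM on a log axis, by breed. Points are animals with their replicate numbers, and the black bar is the mean ± SD of the log values (n = 6 each). The breeds overlap for every gene, and Red Angus holds both the highest and the lowest library for GAPDH, B2M and YWHAZ.

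Differences between breeds were tested with edgeR's quasi-likelihood test in a single fit of all 14446 features that passed the filter on low counts, with Benjamini-Hochberg adjustment over those features. A feature is called at an adjusted p under 0.05. Between F1 and Droughtmaster 0 of the 6 genes were called, where 1.18% of all tested features were. Between F1 and Red Angus 0 of 6 were called, where the share of all features was 0%, and between Droughtmaster and Red Angus 0 of 6 were called, where it was 2.6%. A joint test of any difference among the 3 breeds called 0 of 6, against 2.5% of all features, with adjusted p from 0.588 for EEF1A1 to 0.995 for YWHAZ. With so low a share of all features called, 0 of 6 does not set these genes apart. At an unadjusted p under 0.05 by edgeR the count was also 0 of 6 in each pairwise comparison, where the share of all features was 14.1% for F1 against Droughtmaster, 3.23% for F1 against Red Angus and 19.8% for Droughtmaster against Red Angus. DESeq2's Wald test called 0 of 6 at an adjusted p under 0.05, where it called 4.28%, 0.00698% and 7.24% of all features in the same comparisons.

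EEF1A1 had the largest estimated difference. It averaged 8745 ± 3438 CPM in the F1, 6054 ± 1921 CPM in Droughtmaster and 5938 ± 2153 CPM in Red Angus (SD, n = 6 each). The log2 fold change of F1 over Droughtmaster was 0.53 ± 0.36 (SE; 95% interval -0.21 to 1.27; adjusted p = 0.561 by edgeR). Over Red Angus it was 0.56 ± 0.36 (interval -0.18 to 1.30; adjusted p = 1.00 by edgeR). With total counts taken without the feature that dominates Droughtmaster replicate 3, F1 over Red Angus was 0.69 (interval 0.015 to 1.37; unadjusted p = 0.0456 by edgeR, adjusted p = 1.00). Both comparisons use the same F1 libraries. Droughtmaster and Red Angus differed by 0.028 ± 0.36 in EEF1A1 (interval -0.71 to 0.77).

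GAPDH averaged 1475 ± 683 CPM in the F1, 1588 ± 552 CPM in Droughtmaster and 2020 ± 1125 CPM in Red Angus (SD, n = 6 each). Its log2 fold change was -0.45 ± 0.40 for F1 over Red Angus (interval -1.29 to 0.38) and -0.35 ± 0.40 for Droughtmaster over Red Angus (interval -1.18 to 0.48). ACTB averaged 6298 ± 1180 CPM in the F1, 5418 ± 1407 CPM in Droughtmaster and 6764 ± 2460 CPM in Red Angus. Its log2 fold changes were 0.22 ± 0.31 for F1 over Droughtmaster, -0.10 ± 0.31 for F1 over Red Angus (0.10, the opposite sign, with total counts) and -0.32 ± 0.31 for Droughtmaster over Red Angus. None of these GAPDH and ACTB differences reached 1.5 times its standard error.

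B2M averaged 1167 ± 690 CPM in the F1, 1378 ± 436 CPM in Droughtmaster and 1432 ± 842 CPM in Red Angus, with log2 fold changes of -0.24 ± 0.44 for F1 over Droughtmaster and -0.29 ± 0.44 for F1 over Red Angus. PPIA averaged 547 ± 300 CPM in the F1, 516 ± 225 CPM in Droughtmaster and 603 ± 251 CPM in Red Angus, and its log2 fold changes lay between -0.22 and 0.084 (that of F1 over Red Angus was -0.14, and 0.0020 with total counts). YWHAZ averaged 70.6 ± 31.8 CPM in the F1, 74.3 ± 35.5 CPM in Droughtmaster and 70.3 ± 61.3 CPM in Red Angus, and its log2 fold changes lay between -0.074 and 0.081 with standard errors of 0.48, and turned sign with total counts for F1 over Red Angus (0.0070 with TMM and -0.026 with total counts) and for Droughtmaster over Red Angus (0.081 with TMM and -0.017 with total counts). A close match of means therefore came with the widest uncertainty: the YWHAZ interval for Droughtmaster over Red Angus ran from -0.93 to 1.09. With TMM the 3 intervals of ACTB all stayed within a 2-fold change in either direction, from 0.511-fold at the lowest to 1.82-fold at the highest. Those of PPIA passed it narrowly, at 0.498-fold for Droughtmaster over Red Angus, and stayed within it with RLE scaling. The median log2 fold change of the 6 genes was 0.0052 for F1 over Droughtmaster, -0.12 for F1 over Red Angus and -0.14 for Droughtmaster over Red Angus, beside -0.0076, -0.050 and -0.0052 over all tested features.

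**Figure D2:**
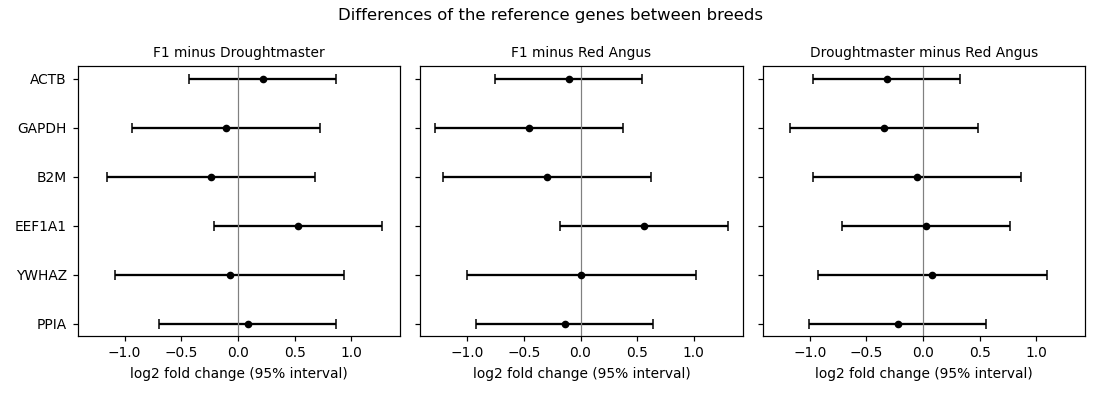
Log2 fold change of each reference gene in the 3 breed comparisons, with 95% intervals from the fit of all 18 libraries. Every interval, with TMM scaling, includes 0. EEF1A1 lies farthest to the right in both F1 comparisons, at 0.53 over Droughtmaster and 0.56 over Red Angus.

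The spread between animals of the same breed was next set against that of the other features. The pooled within-breed SD of log2 CPM was 0.45 for ACTB, 0.57 for EEF1A1, 0.67 for PPIA, 0.72 for GAPDH, 0.85 for B2M and 0.94 for YWHAZ. The median of the 6 genes was 0.70, against 0.68 over all 14446 tested features and 0.57 over the 1703 features with a mean of at least 100 CPM. Of those 1703, 28.1% had a lower SD than ACTB, 48.8% a lower SD than EEF1A1, and 65.8% and 71.9% a lower SD than PPIA and GAPDH. The share was 82.7% for B2M and 88.3% for YWHAZ, whose own mean of 71.7 CPM lies under that limit. ACTB thus lay below the middle of the abundant features in spread and EEF1A1 at about the middle, while the other 4 genes lay above it.

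The share of variance of log2 CPM that lay between the 3 breeds was 18.9% for EEF1A1, 8.66% for ACTB and between 2.90% and 4.29% for the other 4 genes, against a median of 13.1% over the 1703 abundant features. With 6 animals a breed, part of the variance falls between breed means even where breed has no effect. These shares by themselves thus do not show a breed effect, and they were not tested. Leaving out 1 animal moved these shares several-fold for the genes other than EEF1A1. The share without Red Angus replicate 5 was 17.7% for GAPDH, 14.7% for YWHAZ and 16.1% for ACTB, and without Red Angus replicate 2 it was 13.5% for B2M. The median of the abundant features was not computed without these animals, so these shares cannot be set against it. ACTB ranged from 1.58% (without Droughtmaster replicate 6) to 18.04% (without Red Angus replicate 6), EEF1A1 from 12.3% (without F1 replicate 6) to 30.3% (without F1 replicate 3), and PPIA reached at most 7.93% (without Red Angus replicate 2). Spread differed between breeds in a way that depended on the gene. YWHAZ had an SD of 0.74 in F1 animals, 0.77 in Droughtmaster and 1.23 in Red Angus, and GAPDH had 0.59, 0.59 and 0.93 in the same order of breeds. B2M had 0.90 in F1 animals, 0.50 in Droughtmaster and 1.04 in Red Angus. ACTB had 0.27 in F1 animals, 0.45 in Droughtmaster and 0.57 in Red Angus. EEF1A1 had 0.59 in F1 animals, 0.52 in Droughtmaster and 0.59 in Red Angus, and PPIA had 0.67, 0.72 and 0.62 in the same order. Several of these SDs hung on 1 library. In the F1, GAPDH had 0.32 without replicate 2 and PPIA 0.40 without replicate 5. In Droughtmaster, ACTB had 0.17 and GAPDH 0.30 without replicate 6, and EEF1A1 0.30 without replicate 2. In Red Angus, B2M had 0.62 without replicate 2 and EEF1A1 0.38 without replicate 4. Over the 1703 abundant features the median SD was 0.47 in F1 animals, 0.54 in Droughtmaster and 0.65 in Red Angus, and these differences between breeds in spread were not tested.

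A ratio of counts of 2 genes in the same library does not depend on how the library is scaled, and its spread across libraries shows whether the genes move together. By its SD, ACTB over GAPDH was the steadiest of the 15 ratios, at 0.47 on the log2 scale over 18 libraries. This rank rested on the measure and on 1 animal. By the scaled median absolute deviation ACTB with GAPDH stood at 0.72, above 6 other ratios, with EEF1A1 and PPIA lowest at 0.41. Without Red Angus replicate 4 the SD was 0.41 for EEF1A1 with PPIA and 0.45 for ACTB with GAPDH. The ACTB to GAPDH count ratio ran from 2.81 to 5.965 in the F1, from 2.88 to 4.22 in Droughtmaster and from 2.34 to 6.33 in Red Angus, a 2.71-fold range in all. B2M with PPIA (SD 0.55) and EEF1A1 with PPIA (SD 0.55) came next, then ACTB with PPIA (SD 0.65) and B2M with EEF1A1 (SD 0.69).

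GAPDH and YWHAZ were the least steady pair, with an SD of 1.56 and a scaled median absolute deviation of 2.02. The GAPDH to YWHAZ count ratio ran from 7.95 to 102.3 in the F1, from 6.23 to 79.5 in Droughtmaster and from 3.81 to 159.2 in Red Angus, a 41.8-fold range. Its extremes were Red Angus replicates 4 and 5, animals of a single breed. Dividing any other gene by GAPDH in place of YWHAZ would thus shift its value by amounts that differ up to 41.8-fold between these animals. Among all 1449253 pairs of the 1703 abundant features the median SD of a log2 ratio was 0.75. Of those pairs, 18.5% had a lower SD than ACTB with GAPDH, 27.4% a lower SD than B2M with PPIA and 92.5% a lower SD than GAPDH with YWHAZ.

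**Figure D3:**
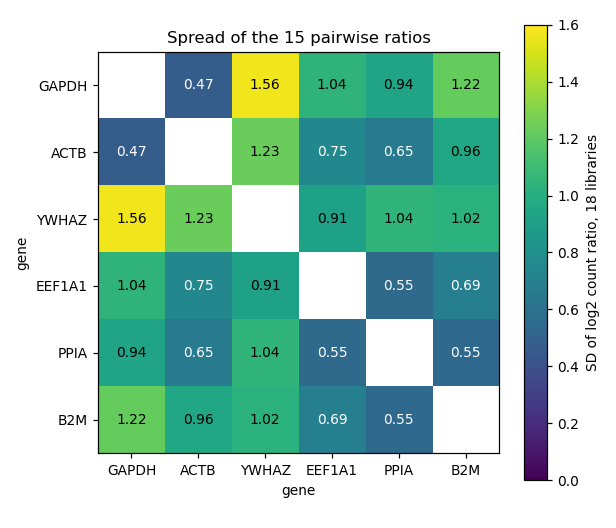
SD of the log2 count ratio of each pair of reference genes over 18 libraries, with genes on both axes and darker cells for steadier ratios. GAPDH with YWHAZ has the highest value (1.56) and ACTB with GAPDH the lowest (0.47), a rank that EEF1A1 with PPIA takes by the median absolute deviation (0.41) or without Red Angus replicate 4. PPIA has values of 0.55 with both EEF1A1 and B2M.

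Averaging the SDs of a gene's 5 ratios gives the geNorm stability measure M, in which a lower value means a steadier gene. PPIA had the lowest M (0.75), followed by EEF1A1 (0.79), ACTB (0.81), B2M (0.89), GAPDH (1.05) and YWHAZ (1.156). When the gene with the highest M was removed step by step, YWHAZ left first, then GAPDH, ACTB and EEF1A1, and B2M with PPIA remained as the last pair. PPIA had the lowest M with each of the 18 animals left out in turn, and YWHAZ was removed first in 17 of these 18 repeats. The last pair was B2M with PPIA in 12 repeats and EEF1A1 with PPIA in 6. M and the within-breed spread put the genes in different orders: ACTB was steadiest on the TMM scale and came after PPIA and EEF1A1 by M, which measures a gene against the other 5 only. Within breeds, M of YWHAZ was 0.95 in F1 animals, 0.90 in Droughtmaster and 1.61 in Red Angus, and M of PPIA was 0.64, 0.69 and 0.88 in the same order. PPIA had the lowest M in Red Angus, but EEF1A1 was lower in the F1 (0.63) and in Droughtmaster (0.58), where B2M (0.65) was lower too.

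Each of the 15 ratios was compared in the 3 pairs of breeds by an exact two-sided permutation test of the difference in mean log2 ratio, 45 tests in all. None had an adjusted p under 0.05, and 2 had an unadjusted p under 0.05. The smallest p was for B2M over EEF1A1 between F1 and Droughtmaster. That ratio was 0.0705, 0.102, 0.122, 0.142, 0.154 and 0.1755 in the 6 F1 libraries and 0.171, 0.218, 0.235, 0.245, 0.250 and 0.262 in the 6 Droughtmaster libraries. In 5 of 6 F1 libraries it lay below every Droughtmaster library. The difference of means was -0.90 ± 0.21 on the log2 scale (SE; 0.537-fold; exact permutation p = 0.00433, adjusted p = 0.195 over 45 tests). In Red Angus the ratio spanned 0.0662 to 0.332, and F1 minus Red Angus was -0.81 ± 0.41 (exact permutation p = 0.0779, adjusted p = 0.76).

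The other ratio with an unadjusted p under 0.05 was EEF1A1 over PPIA between F1 and Red Angus, with a log2 difference of 0.73 ± 0.32 (SE; 1.66-fold; exact permutation p = 0.0368, adjusted p = 0.76). Both ratios hold EEF1A1, the gene with the largest estimated difference between F1 and parents. For Droughtmaster against Red Angus the smallest exact permutation p of the 15 ratios was 0.245.

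Across the 18 animals the genes moved in 2 sets of 3, a grouping drawn after the values were seen. Correlations of log2 CPM were computed for the 15 pairs, with permutation p-values (two-sided, 100000 resamples) adjusted over the 15. ACTB and GAPDH ran in parallel (Pearson r = 0.74, permutation p = 0.00045, adjusted p = 0.00225; Spearman rho = 0.73, permutation p = 0.00086), with r of 0.81 in F1 animals, 0.91 in Droughtmaster and 0.71 in Red Angus. GAPDH and YWHAZ ran opposite to each other (r = -0.92 and rho = -0.91, both with the smallest permutation p possible, 1e-05; adjusted p = 0.00015). This held within each breed, with r of -0.95 in F1 animals, -0.81 in Droughtmaster and -0.97 in Red Angus. Without Red Angus replicates 4 and 5, the libraries farthest from the GAPDH median, r was -0.89. ACTB and YWHAZ were also opposed (r = -0.65, permutation p = 0.00334, adjusted p = 0.0125; rho = -0.61, permutation p = 0.00879), with r of -0.85 in F1 animals, -0.51 in Droughtmaster and -0.67 in Red Angus. Without Droughtmaster replicate 6 and Red Angus replicate 1 their r was -0.56, and for ACTB and GAPDH it was 0.66.

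In the other set, B2M and PPIA correlated at r = 0.74 (permutation p = 0.00034, adjusted p = 0.00225; rho = 0.73, permutation p = 0.00079), and within breeds at 0.90 in F1 animals, 0.67 in Droughtmaster and 0.82 in Red Angus. EEF1A1 correlated with PPIA at r = 0.60 (permutation p = 0.00912, adjusted p = 0.0274; rho = 0.57, permutation p = 0.0145) and with B2M at r = 0.55 (permutation p = 0.0168, adjusted p = 0.042; rho = 0.65, permutation p = 0.00419). Within breeds EEF1A1 with PPIA stood at 0.87 in the F1 and 0.91 in Droughtmaster but 0.30 in Red Angus. EEF1A1 with B2M stood at 0.88 among F1 animals, 0.90 among Droughtmaster and 0.54 among Red Angus. With the DESeq2-type RLE scaling, chosen for this check after seeing the data, EEF1A1 no longer passed with PPIA (r = 0.55, adjusted p = 0.0525 by permutation) or with B2M (r = 0.51, adjusted p = 0.0813 by permutation) by Pearson's r. By Spearman's rho both still passed with RLE (rho = 0.56, adjusted p = 0.0408 for PPIA and rho = 0.61, adjusted p = 0.026 for B2M, by permutation). Without the libraries farthest from the median of the first gene, r was 0.75 for B2M with PPIA, 0.70 for EEF1A1 with PPIA and 0.67 for B2M with EEF1A1. Of the 9 pairs that cross the sets, 0 passed, with r between -0.31 and 0.32. All levels in a library share its scaling factor, so these correlations are not free of it.

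The features most like each gene over the 18 libraries were sought among 1684 Ensembl features with a mean of at least 100 CPM (1685 for YWHAZ), by Pearson correlation of log2 CPM, as a description. GAPDH had the closest match, ENSBTAG00000019096 (r = 0.99), and 152 features above r = 0.9. YWHAZ was closest to ENSBTAG00000019821 (r = 0.94), with 7 features above 0.9 and 440 below -0.8. B2M was closest to ENSBTAG00000026993 (r = 0.97) and PPIA to ENSBTAG00000013533 (r = 0.94), with 14 and 10 features above 0.9. ACTB (ENSBTAG00000014931, r = 0.90) and EEF1A1 (ENSBTAG00000018800, r = 0.89) had 0 above 0.9. At a common limit, 435 features had r above 0.8 with GAPDH and 440 had r below -0.8 with YWHAZ.

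On the TMM scale, GAPDH, YWHAZ and ACTB also moved with the number of features that had at least 1 count in a library. That number ranged from 15507 to 19605. GAPDH was lower in libraries with more features (r = -0.90, rho = -0.89, both with the smallest permutation p possible, 1e-05; adjusted p = 6e-05 over 6 genes). Within breeds r was -0.95 in F1 animals, -0.81 in Droughtmaster and -0.95 in Red Angus. YWHAZ was higher in libraries with more features (r = 0.81, permutation p = 4e-05, adjusted p = 0.00012; rho = 0.81, permutation p = 0.00011), with r of 0.91 in F1 animals, 0.66 in Droughtmaster and 0.87 in Red Angus. ACTB was lower in them (r = -0.67, permutation p = 0.00242, adjusted p = 0.00484; rho = -0.57, permutation p = 0.0142), with r of -0.68 in F1 animals, -0.76 in Droughtmaster and -0.69 in Red Angus. Without F1 replicate 2 and Droughtmaster replicate 6, the libraries farthest from the median number of features, r was -0.87 for GAPDH, 0.78 for YWHAZ and -0.54 for ACTB. The ACTB relation may depend on the scaling: r was -0.71 with RLE, but ACTB levels changed with total counts. By total counts without the dominant feature, ACTB log2 CPM was 12.76, 12.81, 12.81, 12.78, 12.66 and 12.40 in F1 replicates 1 to 6. With TMM these values were 12.55, 12.90, 12.48, 12.55, 12.92 and 12.20. Replicate 2 had the fewest features. The relations with the number of features were not computed on total counts. The TMM factor enters the level of every gene and differed along this axis. It was 1.46 in Droughtmaster replicate 6 (19605 features) and 1.43 in Red Angus replicate 5 (19096 features). In F1 replicate 2 it was 0.936, and its lowest value, 0.424, was in Droughtmaster replicate 3 (17084 features). Its part in the GAPDH, YWHAZ and ACTB relations was not tested.

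F1 replicate 2 and Red Angus replicates 2 and 4 had the fewest features (15507, 15790 and 15855), with total counts of 14778379, 24117615 and 21285325. In these 3 libraries GAPDH measured 2718, 2675 and 3673 CPM and YWHAZ 26.6, 31.2 and 23.1 CPM. Without all 3, r was -0.84 for GAPDH, 0.70 for YWHAZ and -0.60 for ACTB. B2M (r = 0.36, permutation p = 0.137; rho = 0.14, permutation p = 0.578), EEF1A1 (r = 0.24, permutation p = 0.348; rho = 0.18, permutation p = 0.481) and PPIA (r = -0.0091, permutation p = 0.971; rho = -0.018, permutation p = 0.948) did not pass. The part that cell composition or RNA quality has in these relations was not tested.

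**Figure D4:**
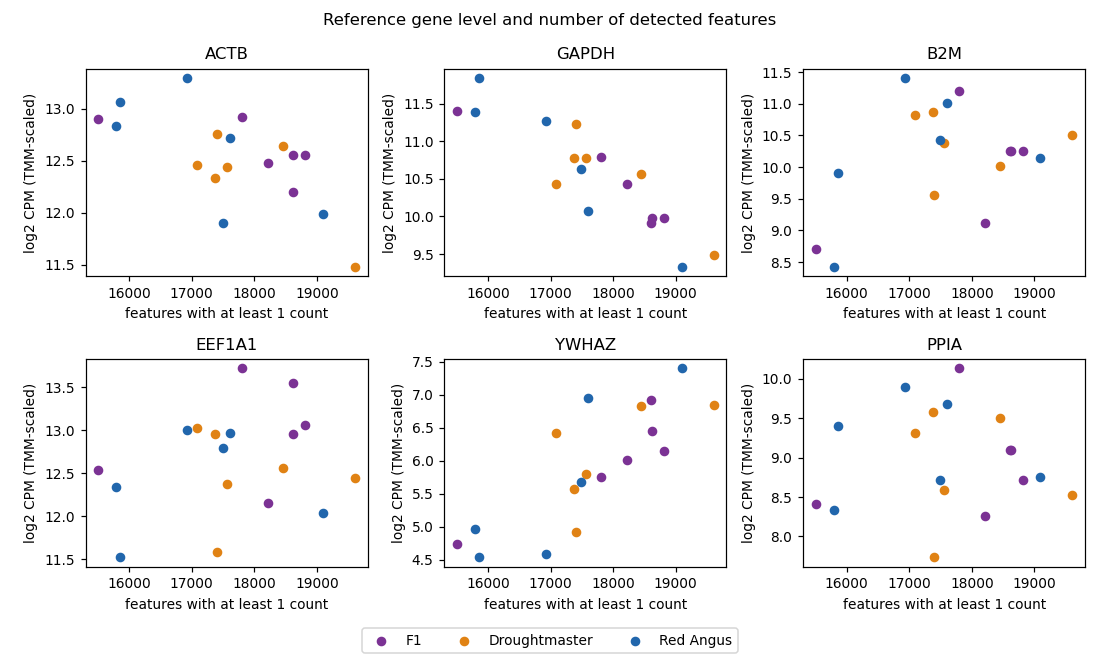
Log2 CPM of each reference gene against the number of features with at least 1 count, for 18 libraries coloured by breed. With TMM scaling, GAPDH and ACTB fall and YWHAZ rises along the axis (r = -0.90, -0.67 and 0.81), in each breed. B2M, EEF1A1 and PPIA show no relation past the test.

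Scaling the libraries on the reference genes, as a qPCR assay does, changed how many features differed between breeds. On the TMM scale 171 features differed between F1 and Droughtmaster and 376 between Droughtmaster and Red Angus. Leaving out single animals moved these counts between 65 (without F1 replicate 1) and 335 (without Droughtmaster replicate 1), and between 143 (without Droughtmaster replicate 6) and 1407 (without Red Angus replicate 5). With the libraries scaled on the geometric mean of the 6 genes the counts were 99 and 79, and 93 of the 99 and all 79 were also called, in the same direction, with TMM. With ACTB alone they were 152 and 97, with 112 and 92 shared. PPIA alone gave 42 and 22, GAPDH alone gave 3 and 22, B2M alone gave 7 and 8, and YWHAZ alone gave 0 and 2. For F1 over Droughtmaster, the standard error of the typical (median) feature was 0.39 on the log2 scale with TMM, 0.43 with the geometric mean of the 6 genes and 0.48 with ACTB, and 0.63 with both B2M and YWHAZ.

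EEF1A1 alone gave 402 features between F1 and Droughtmaster, 393 of them lower in the F1, and 43 between Droughtmaster and Red Angus. Of the 402, 132 were also called in the same direction with TMM. EEF1A1 scaling moved the median log2 fold change of all features to -0.50 for F1 over Droughtmaster, against -0.0076 with TMM, in the direction opposite to the EEF1A1 difference of 0.53. Scaling on a gene fixes that gene's own fold change at 0, so the opposite shift with EEF1A1 came at least in part from the method. With EEF1A1 the calls for F1 over Droughtmaster lay mostly in the direction of this shift. The same median was -0.30 with ACTB, 0.49 with B2M and -0.13 with PPIA. For Droughtmaster over Red Angus it was 0.23 with ACTB, -0.33 with B2M, -0.53 with YWHAZ and 0.28 with PPIA. For F1 over Red Angus it was -0.61 with EEF1A1 and -0.51 with YWHAZ. These medians did not always mirror the gene's own difference with TMM. For Droughtmaster over Red Angus that difference was 0.081 for YWHAZ and -0.055 for B2M. For F1 over Red Angus it was 0.0070 for YWHAZ. The direction of calls moved with the scaling as well: 25.7% of the calls for F1 over Droughtmaster were higher in the F1 with TMM, 5.92% with ACTB and 2.24% with EEF1A1. For Droughtmaster over Red Angus the share of calls higher in Droughtmaster was 57.7% with TMM and 68.4% with total counts. It was 71.5% with total counts without the dominant feature, 78.4% with ACTB and 72.7% with PPIA. With EEF1A1 it was 67.4% (29 of 43), with GAPDH 31.8% (7 of 22) and with B2M 37.5% (3 of 8). The median log2 fold change in this comparison was -0.0013 with GAPDH and -0.067 with EEF1A1, so these shares did not simply follow the median. F1 against Red Angus gave 0 calls with TMM (466 features had an unadjusted p under 0.05, and DESeq2's Wald test called 1) and 0 with each of the 6 genes.

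**Figure D5:**
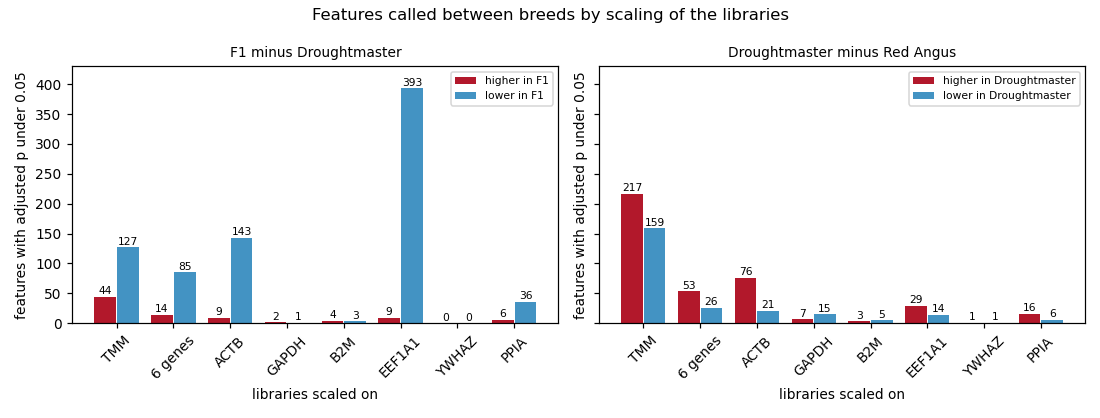
Number of features with an adjusted p under 0.05 by edgeR, higher (red) and lower (blue) in the first-named breed, with the libraries scaled by TMM, on the geometric mean of the 6 reference genes, or on each gene alone. EEF1A1 gives 393 features lower in the F1 than in Droughtmaster, and YWHAZ gives 0.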

How the data were processed

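The deposited file holds raw counts per gene from the authors, 1 column per animal, and all 18 columns matched a sample title. The submitters' processing notes name the tools DESeq2 1.16.1, featureCounts 1.5.0-p3 and HISAT2 2.0.5 and, as genome build, ARS-UCD1.2. Whether counting used strand is not given in the sources used here. The genes and lists were chosen with earlier results of these data known. Of 27607 Ensembl identifiers, 0 were found in the RefSeq gene table (ARS-UCD2.0), so lists of other reference genes, paralogs and blood cell markers were not used and no positions are given.

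Counts were fitted with edgeR 4.0.16 (R 4.3.3): filterByExpr by breed, TMM, 3 breed means, robust quasi-likelihood F test, two-sided. Standard errors came from the F statistic. Log2 CPM used a prior count of 2, and ratios used raw counts. The fit was checked on simulated counts. DESeq2 1.42.0, RLE, total counts, total counts without the feature that dominates Droughtmaster replicate 3 (ENSBTAG00000037644), no filter, fits of 2 breeds and each animal left out were alternatives. Named genes were the 6 and, for each, the Ensembl feature with the highest r. Permutation tests used Python 3.11.15. The p-values for breed differences set them against the spread between these animals, and those for correlations come from shuffling the 18 libraries.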

Additional observations from a re-analysis of the deposited data

Results flagged for a closer look

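Among 18 sets of 6 libraries (6 genes in 3 breeds), 1 had a library far from the rest on the log2 scale by Dixon's test at its 95% critical value. ACTB measured 2856 CPM in Droughtmaster replicate 6, against 5149 to 6910 CPM in the other 5 Droughtmaster libraries. Among 45 sets for ratios, 1 was singled out: B2M over EEF1A1 was 0.0662 in Red Angus replicate 2, against 0.195 to 0.332 in the other 5 Red Angus libraries. Chance alone singles out about 1 in 20 such sets.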

How the results depend on the processing

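No paired analysis was possible because the breeds are separate animals and the labels give no parentage or batch to link them. In all 24 alternatives 0 of the 6 genes were called in each comparison, with a smallest adjusted p of 0.338 (edgeR; GAPDH, Droughtmaster minus Red Angus, without Red Angus replicate 5). Without adjustment, a p under 0.05 by edgeR was reached by EEF1A1 in F1 minus Red Angus with total counts without the dominant feature (log2 fold change 0.69). It was also reached with scaling on EEF1A1 by B2M in both F1 comparisons (-0.85 over Droughtmaster and -0.91 over Red Angus) and by PPIA in F1 minus Red Angus (-0.85). Fold changes near 0 turned their sign, as values far inside their intervals. With total counts, log2 fold changes of F1 minus Red Angus were 0.10 for ACTB, -0.026 for YWHAZ and 0.0020 for PPIA, and of Droughtmaster minus Red Angus 0.021 for B2M and -0.017 for YWHAZ. With total counts without the dominant feature they were 0.10, -0.025 and 0.0020 for ACTB, YWHAZ and PPIA in F1 minus Red Angus, and 0.13 for B2M in Droughtmaster minus Red Angus. Scaled on the other 5 genes, B2M was 0.074 in Droughtmaster minus Red Angus and YWHAZ -0.12 in F1 minus Red Angus. With 1 animal left out, F1 minus Droughtmaster ran from -0.36 to 0.046 for GAPDH, -0.29 to 0.12 for YWHAZ and -0.22 to 0.23 for PPIA. F1 minus Red Angus ran from -0.22 to 0.050 for ACTB, -0.22 to 0.48 for YWHAZ and -0.43 to 0.024 for PPIA. Droughtmaster minus Red Angus ran from -0.26 to 0.23 for B2M, -0.079 to 0.20 for EEF1A1 and -0.12 to 0.55 for YWHAZ.

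The 376 features between Droughtmaster and Red Angus became 76 with total counts, 172 without the dominant feature, 236 with no filter, 56 with 2 breeds in the fit, 1037 by DESeq2, 79 on the 6 genes, and 97, 22, 8, 43, 2 and 22 on ACTB, GAPDH, B2M, EEF1A1, YWHAZ and PPIA alone. The 171 between F1 and Droughtmaster became 64 with total counts, 110 without the dominant feature, 613 by DESeq2, 99 on the 6 genes, and 3, 7, 402, 0 and 42 on GAPDH, B2M, EEF1A1, YWHAZ and PPIA alone. F1 against Red Angus gave 1 by DESeq2. With 1 animal left out the count for Droughtmaster against Red Angus ran from 143 to 1407. It moved by over 1.5 times without Droughtmaster replicates 3 (149) and 6 (143), Red Angus replicates 1 (160), 2 (226), 3 (166), 4 (158) and 5 (1407), and F1 replicates 3 (241) and 4 (249). For F1 against Droughtmaster it ran from 65 to 335, and so moved without F1 replicates 1 (65), 2 (98), 3 (92), 4 (91) and 6 (99) and Droughtmaster replicates 1 (335), 2 (101), 4 (276) and 6 (84). M of B2M was 0.71 by the median absolute deviation. The 0 ratio calls stayed at 0 in all 19 alternatives. Without the 3 libraries with the fewest features, an alternative chosen after seeing the data, r with the number of features was -0.38 for B2M and -0.11 for EEF1A1. The pooled within-breed SD fell to 0.31 for ACTB and 0.54 for GAPDH and rose to 1.1565 for YWHAZ by total counts without the dominant feature, and was 1.18 for YWHAZ by total counts. The causes were not tested.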
